A study of Mus musculus with 9 samples.

Results

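Here 8 genes are described that skeletal muscle uses to contract and to supply energy: Mylpf, Myl1, Acta1, Tpm2, Des, Ckm, Eno3 and Mb. They were chosen by symbol, as every feature whose platform annotation names one of these genes alone after updating by gene ID. This gave 12 features of the 11552 on the array, 3 for Acta1, 2 each for Tpm2 and Des and 1 for each other gene, and 11 of the 12 had enough values to be tested. Each array compared a castrated C57BL/6 mouse with its matched sham-operated mouse by dual-colour hybridisation, and each group held 3 such mouse pairs. The old group came from mice of 59 weeks, with specimens labelled bone marrow. The young bone and young marrow groups came from mice of 17 weeks, whose bone and marrow were arrayed separately. All castrated mice had been operated at 7 weeks, and the source in every group was the femur, tibia and humerus. The extraction text speaks of pulverised bone for all samples, and the separation of marrow is described for the young mice alone, so the labels do not settle how much bone the old specimens held. How the bones were cleaned of muscle is not described in the labels.

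Skeletal muscle shortens when myosin filaments pull on actin filaments, and calcium switches this on through troponin and tropomyosin, which lie along the actin. The energy comes from ATP, which is refilled quickly from phosphocreatine and more slowly from glycolysis and respiration. Bone and marrow cells rely mainly on non-muscle relatives of these proteins, though Tpm2 and Des are not confined to skeletal muscle. Skeletal muscle inserts directly on the long bones.

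The deposited values were log ratios, read as log2. The labels state neither their base nor their direction or normalisation. The labels describe all 9 arrays as castrated against sham, so castrated over sham is the likely direction and is the one used below. On 3 arrays, old 2, young bone 3 and young marrow 2, the castrated mouse was in the Cy3 channel (swapped arrays). The alternative, in which every value is Cy5 over Cy3 and these 3 arrays change sign, is given beside the results it touches. The arrays held 8290 to 10995 values each. The SD over features lay between 0.192 and 0.294 on 8 arrays and was 0.454 on old 1, which stood apart in spread, and no pair of arrays correlated below -0.29 over all features. Ratios carry no level, so the amount of muscle RNA could not be followed. Whether a value was given is described below, but what leads to a missing value is not stated. Intensities were not used here, and precision is limited by having 3 arrays per group.

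Promoters of muscle genes are known targets of the myogenic factors, which bind E-boxes, and 4 member promoters are shown because Mylpf, Myl1 and Ckm had ratios on opposite sides of 0 in the old and young bone groups while Acta1 did not. Each is the 250 bases before the annotated start, 5′ to 3′ on the strand of the gene, from RefSeq on GRCm38.p6, with matches to the searched motifs in capitals. The windows are chr7:127211358-127211607 on the plus strand for Mylpf, chr1:66945057-66945306 on the minus strand for Myl1, chr8:123894776-123895025 on the minus strand for Acta1 and chr7:19410844-19411093 on the plus strand for Ckm.
Mylpf: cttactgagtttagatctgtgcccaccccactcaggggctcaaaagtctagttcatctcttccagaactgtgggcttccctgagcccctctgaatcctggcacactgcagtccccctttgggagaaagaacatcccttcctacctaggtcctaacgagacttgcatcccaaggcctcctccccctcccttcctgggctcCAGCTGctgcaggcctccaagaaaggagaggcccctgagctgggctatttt
Myl1: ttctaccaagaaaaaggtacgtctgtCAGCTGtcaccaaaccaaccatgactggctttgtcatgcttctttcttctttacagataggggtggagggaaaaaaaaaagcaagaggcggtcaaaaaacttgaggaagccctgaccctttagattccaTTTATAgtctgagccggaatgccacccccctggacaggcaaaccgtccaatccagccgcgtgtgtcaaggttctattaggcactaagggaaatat
Acta1: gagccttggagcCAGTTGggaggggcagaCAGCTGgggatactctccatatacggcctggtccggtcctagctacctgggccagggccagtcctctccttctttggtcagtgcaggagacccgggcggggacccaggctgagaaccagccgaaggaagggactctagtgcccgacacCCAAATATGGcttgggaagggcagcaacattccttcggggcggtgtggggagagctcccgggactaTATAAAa
Ckm: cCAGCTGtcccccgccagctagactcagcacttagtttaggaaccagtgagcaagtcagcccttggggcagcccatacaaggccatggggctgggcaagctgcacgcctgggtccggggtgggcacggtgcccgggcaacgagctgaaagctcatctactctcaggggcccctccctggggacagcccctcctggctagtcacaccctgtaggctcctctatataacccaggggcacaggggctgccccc
The motifs searched on both strands were the E-box CANNTG, the TATA box as TATAAA, the CArG box bound by serum response factor, and the MEF2 site. No match in these windows overlapped a match to another motif. An E-box was found in the promoters of 8 of 8 members, against 66.2% of 32851 RefSeq promoter windows of the same length. It read CAGCTG at -51 to -46 in Mylpf, at -224 to -219 in Myl1, at -221 to -216 in Acta1 and at -249 to -244 in Ckm, counted from the base before the start. Mb, which is not shown, also had ratios on opposite sides of 0. Its first window held CAACTG and CAGTTG, and its other windows each held CAGCTG. Eno3 held CACTTG alone. The share of CAGCTG over all windows was not counted. TATAAA on either strand was found in 2 of 8 members, Acta1 and Myl1, against 12.4% of all windows. In Acta1 it lay at -7 to -2 on the strand of the gene. In Myl1 it read TTTATA at -95 to -90, so it lay on the other strand. Variants such as the tatataa in the Ckm window were not counted. The CArG box was found in Acta1 alone among the 8, against 1.47% of all windows, and the MEF2 site in 0 of 8, against 0.508%. These matches describe letters in a window and are not binding sites.

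Among the myosin light chains, Mylpf (feature 2485), the regulatory light chain of fast fibres, had log2 ratios of 1.15, 0.42 and 0.50 on the old arrays 1, 2 and 3, -1.31, -0.19 and -0.48 on the young bone arrays 1, 2 and 3, and 0.15, 0.24 and 0.02 on the young marrow arrays 1, 2 and 3. The 3 groups did not overlap: every old array lay above every young marrow array, and every young marrow array above every young bone array. Myl1 (feature 11348), the essential light chain of fast fibres, had 0.93, 0.20 and 0.23 on the old arrays, -1.43, -0.31 and -1.42 on the young bone arrays, and -0.34 and 0.04 on the young marrow arrays 1 and 2, with no value on the third. All old arrays lay above 0 and all young bone arrays below 0, while the lower young marrow value lay within the young bone range.

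For the thin filament the picture was less even. Acta1, the skeletal muscle form of actin, averaged over its 3 features 0.09, -0.04 and 0.11 on the old arrays, -0.73, 0.12 and -0.39 on the young bone arrays, and -0.12, 0.04 and -0.24 on the young marrow arrays. Young bone 2 was the highest of the 9 values, so the old and young bone groups overlapped. Its features 9523 and 9715 stayed within 0.10 of each other on every array, whereas feature 10423, which carries the same sequence accession, differed from feature 9523 by up to 0.36 and correlated with it at r = 0.69 over 9 arrays. Tpm2, the beta form of tropomyosin that is also made in smooth muscle, averaged over 2 features 1.18, 0.41 and 0.31 on the old arrays, -0.32, -0.08 and 0.18 on the young bone arrays, and 0.36, 0.20 and 0.60 on the young marrow arrays. Its old values lay above all young bone values and overlapped the young marrow values, and it was the member with the highest ratio on 2 of the 3 young marrow arrays. Des, the intermediate filament that ties neighbouring myofibrils together in all muscle types, averaged over 2 features 0.94, 0.08 and -0.02 on the old arrays, -0.53, 0.02 and -0.07 on the young bone arrays, and -0.16, -0.03 and 0.21 on the young marrow arrays. Old 1 and young bone 1 stood away from 0 and the other values of Des lay within 0.21 of it. Feature 11144 of Des had a value on 1 young marrow array and was not tested.

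Of the energy genes, Ckm (feature 8841), the creatine kinase of muscle that refills ATP from phosphocreatine, had 1.56, 0.42 and 0.55 on the old arrays, -0.87, -0.12 and -0.53 on the young bone arrays, and -0.31, -0.12 and -0.20 on the young marrow arrays. Its old values lay above 0 and above those of both young groups, which overlapped each other below 0. Eno3 (feature 10271), the muscle form of the glycolytic enzyme enolase, had 0.39, 0.03 and -0.19 on the old arrays, -1.41, -0.20 and -0.67 on the young bone arrays, and -0.01, 0.31 and 0.12 on the young marrow arrays. The young bone values were the lowest of the 3 groups, by only 0.01 against old 3, and the old and young marrow values overlapped. Mb (feature 11146), myoglobin, the oxygen store of slow and cardiac fibres, had 1.70, 0.11 and 0.39 on the old arrays, -1.69, -0.21 and -0.89 on the young bone arrays, and -0.04 and -0.08 on the young marrow arrays 1 and 2. It had the widest span of the 8 genes, 3.39 between old 1 and young bone 1, against 0.85 for Acta1, which had the narrowest.

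**Figure D1:**
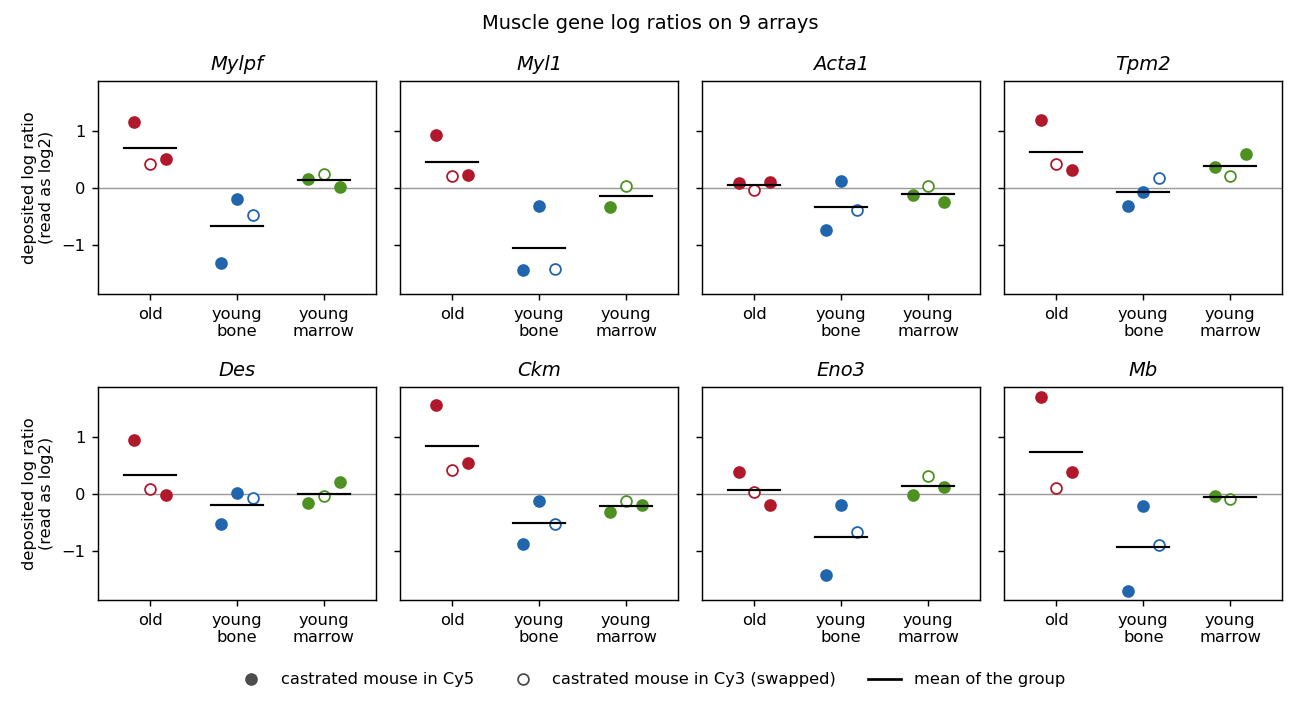
Deposited log ratios (vertical axis, read as log2 of castrated over sham) of the 8 muscle genes on the old, young bone and young marrow arrays; filled points have the castrated mouse in Cy5, open points in Cy3, and the line is the mean of the group. Mylpf, Myl1, Ckm and Mb had all 3 old points above 0 and all 3 young bone points below 0.

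Taken by array, the member medians farthest from 0 were on old 1 and young bone 1, in opposite directions, though old 1 also had the widest spread of all features. The median of the members was 1.05, 0.16 and 0.27 on the old arrays, -1.09, -0.16 and -0.50 on the young bone arrays, and -0.08, 0.04 and 0.07 on the young marrow arrays. If the base is 2, the outermost of these are a 2.07-fold higher ratio on old 1 and 0.47 times the sham level on young bone 1. Of all features on the same array, 96.3%, 75.1% and 91.8% lay below the member median on the old arrays, 0.2%, 29.5% and 2.3% on the young bone arrays, and 29.1%, 55.2% and 61.7% on the young marrow arrays. On young bone 1, 7 of 8 members lay below the 5th percentile of all features, and on young bone 3 it was 5 of 8. On young bone 2 it was 0 of 8, so this array showed the pattern least. Above the 95th percentile lay 4, 3 and 3 members on old 1, old 2 and old 3. Young bone 1 was the lowest of the young bone arrays for 8 of 8 members, against 22.1% of 10258 features, and old 1 the highest of the old arrays for 7 of 8 members, against 29.0% of 8573 features.

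Castration effects were then tested with limma, in 1 fit of the 9 arrays with a term for each group and a term for dye, adjusted by Benjamini-Hochberg over 8885 features. In the old group all 11 tested member features had fitted values above 0, from 0.03 to 0.81 with a median of 0.41, against a median of -0.04 over all features. None passed an adjusted p of 0.05 (0 of 11, against 0.732% of all features called), and 4 of 11 had an unadjusted p under 0.05, against 18.2% of all features. Ckm had the largest fitted value in the old group, 0.81 ± 0.20 (SE, limma adjusted p = 0.11). The 2 features of Tpm2 had 0.67 ± 0.17 and 0.57 ± 0.17 (SE, limma adjusted p = 0.12 and 0.18), and Mylpf had 0.69 ± 0.20 (SE, limma adjusted p = 0.17). Mb had 0.68 ± 0.30 with a limma adjusted p of 0.27. Acta1 and Eno3 had old group values near 0, at most 0.09.

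In young bone all 11 features had fitted values below 0, from -1.09 to -0.07 with a median of -0.37, against -0.01 over all features. Here too 0 of 11 passed, against 0.259% of all features called, and 7 of 11 had an unadjusted p under 0.05 in the limma fit, against 8.78% of all features. Myl1 came nearest, at -1.09 ± 0.22 (SE, limma adjusted p = 0.093), and it passed when the features of a gene were averaged and unnamed features left out before the fit (limma adjusted p = 0.041, with 0.754% of genes called), a setting added after the data were seen. It also passed without young bone 2 (limma adjusted p = 0.038, with 0.158% of features called), the young bone array on which the members were nearest 0. Eno3 had -0.74 ± 0.19 (SE, limma adjusted p = 0.20), Mylpf -0.66 ± 0.20 (0.29) and Mb -0.98 ± 0.30 (0.30). Tpm2 was nearest 0 in young bone, with -0.07 ± 0.17 and -0.11 ± 0.17, and Des had -0.18 ± 0.16. In bulk tissue a lower ratio from fewer cells of a type and one from less RNA per cell cannot be told apart.

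In young marrow the member features were split, 5 above and 6 below 0, with a median of -0.04 against 0.00 over all features. None of 11 passed, against 0.844% of all features called by limma, and 1 had an unadjusted p under 0.05, a feature of Tpm2 at 0.38 ± 0.17, against 10.5% of all features. The rest lay between -0.24 for Ckm and 0.37 for the other Tpm2 feature.

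The difference between the old group and young bone asks whether the castration ratios of these genes were alike in the 2 groups. These groups differ in age, in time since castration and in the label of the specimen, which cannot be told apart here. The difference was positive for 11 of 11 features, from 0.32 to 1.66 with a median of 0.74, against -0.03 over all features. No member passed in the limma fit (0 of 11, adjusted p between 0.52 and 0.71), against 0.0113% of all features called, and 7 of 11 had an unadjusted p under 0.05, against 6.63% of all features. The 4 outermost differences were 1.66 ± 0.42 for Mb, 1.51 ± 0.30 for Myl1, and 1.35 ± 0.28 for both Ckm and Mylpf (SE). The groups rest on 3 mouse pairs each. The spread behind these p-values was estimated from all 9 arrays, young marrow included, and moderated over all features. On the old and young bone arrays alone, the limma adjusted p was 0.90 for the 12 member features. Against young marrow, the old group had higher values for 10 of 11 features, with a median difference of 0.25 (11 of 11 and 0.20 under the Cy5-over-Cy3 reading), and 0 of 11 passed in the limma fit, against 0.0% of all features. The unadjusted p was under 0.05 for 1 of 11 features, Ckm at 1.05 ± 0.28, against 14.5% of all features. Same-numbered old and young marrow arrays deviated together (r = 0.60, 0.27 and 0.30), though they came from different mice. Differently numbered arrays of other groups also did so, with r = 0.40 for young bone 2 and old 1. A fit with these numbers as a block was added after the data were seen, and since array 2 is swapped in both groups, the block also holds the dye. On those 6 arrays and 9 member features with all values, 0 of 9 passed in limma, against 0.0% of all features. Ckm (limma adjusted p = 0.064) and Mylpf then had an unadjusted p under 0.05, against 26.2% of all features. Young bone had lower values than young marrow for 11 of 11 features, with a median difference of -0.44. Under the Cy5-over-Cy3 reading it was lower for 8 of 11, with a median of -0.16. Under the castrated-over-sham reading again 0 of 11 passed in the limma fit, against 0.0% of all features, and 3 of 11 had an unadjusted p under 0.05, against 5.12% of all features. Each pair of these comparisons shares a group of arrays, and they are not independent of each other.

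The size of these values depended on the direction of the ratio more than their sign did. Under the Cy5-over-Cy3 reading the fitted values in the old group were again above 0 for 11 of 11 features, with a median of 0.24, and old minus young bone was above 0 for 11 of 11, with a median of 0.43. In young bone the median was -0.16, with 8 of 11 features below 0, 2 above and Myl1 at 0.00 when rounded. No member passed in the limma fit under that reading in these 3 comparisons, against 0.0% of all features in each. In each, 0 of 11 had an unadjusted p under 0.05, against 2.28% of all features in the old group, 6.82% in young bone and 4.09% for old minus young bone. On the 6 unswapped arrays, which run the same way under both readings, the median was 0.58 in the old group, -0.34 in young bone and 0.94 for the difference, with 0 of 11 called by limma in each, against 0.147%, 0.0113% and 0.0% of all features, and 5, 5 and 7 of 11 at an unadjusted p under 0.05, against 14.7%, 8.64% and 4.03%. The calls depended on old 3: without it, 4 of 11 member features passed in the limma fit of the old group, both Tpm2 features, Ckm and Mylpf, where 15.0% of all features then passed. Without old 3, Myl1 passed in young bone (1 of 11, against 0.9% of all features), and Ckm for old minus young bone (1 of 11, against 0.349%) and for old minus young marrow (1 of 11, against 9.96%). Without old 1, the array of wide spread, the median for old minus young bone was 0.46, and without young bone 1 it was 0.50.

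**Figure D2:**
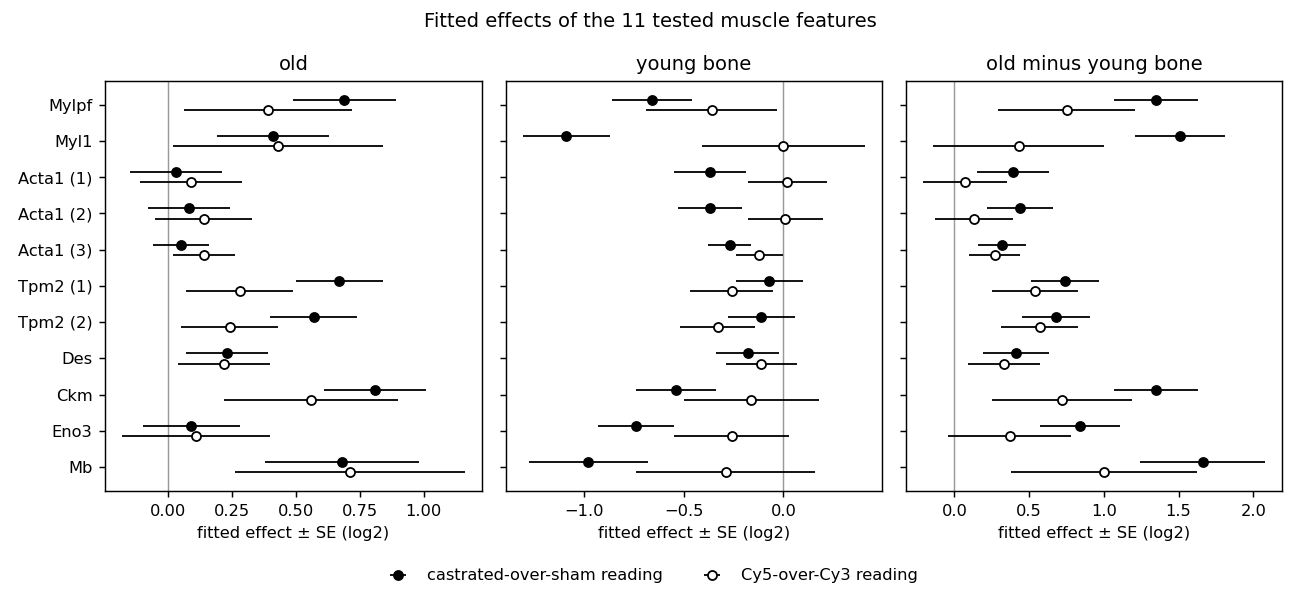
Fitted effects ± SE (horizontal axis, log2) of the 11 tested member features in the old group, in young bone and for old minus young bone, under the castrated-over-sham reading (filled) and the Cy5-over-Cy3 reading (open). Filled points lay above 0 in the old group and below 0 in young bone for all 11 features, and the open points of young bone lay nearer to 0 for most features, with Tpm2 as an exception.

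Array by array, every old value lay above every young bone value for 9 of 12 member features, against 3.31% of 8470 features with values on all 6 arrays. For 4 of 12, Mylpf, Ckm, Mb and Myl1, every old array was also above 0 and every young bone array below 0, against 0.602% of those features. When the swapped arrays changed sign, no member kept either pattern, 0 of 12 in both cases, against 2.86% and 0.685% of features, since old 2 and young bone 3 are swapped arrays. Every old value lay above every young marrow value for 3 of 9 member features with values on all of these arrays, against 8.84% of 7594 features, and every young bone value below every young marrow value for 3 of 9, against 7.39% of 7830 features. With the swapped arrays turned, these were 1 of 9, a feature of Acta1, against 0.856%, and 0 of 9, against 3.08%. In a ranking of the 8470 features by mean old minus mean young bone ratio, Mb came 1st, Myl1 4th, Ckm 7th and Mylpf 8th, and the other 6 of the top 10 were also on the muscle lists: Tnnt3, Tnnc2, Tnni2, Tnni1, Atp2a1 and Ldb3. Of the top 50 features, 18 were on a muscle list and 6 of them were members. With the swapped arrays turned, Mb came 3rd, Mylpf 16th, Ckm 22nd and Myl1 140th, and 11 of the top 50 were on a muscle list, 4 of them members. The lists were chosen with earlier results known, and the ranking is a description.

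Whether the members moved together was described by Pearson correlation over arrays, which share the 3 groups and the array processing and are given without a test. Over the 9 arrays the 28 pairs of genes had r between 0.49, for Tpm2 with Acta1, and 0.97, for Mylpf with Mb, with a median of 0.85. Each gene correlated with the mean of the other 7 at 0.79 for Acta1 up to 0.99 for Mb. The median r was 0.90 over the 6 unswapped arrays. It was 0.46 over the 7 arrays left without old 1 and young bone 1, where pairs ranged from -0.39 for Tpm2 with Acta1 to 0.95 for Mb with Myl1. The high median thus rested largely on those 2 arrays, but not for every pair. Without them, pairs among Mylpf, Ckm, Mb and Myl1 had r from 0.83 to 0.95. Pairs with Tpm2 or Des had r of 0.47 or less, and the remaining pairs with Acta1 or Eno3 lay between 0.28 and 0.85. The SD over the 9 arrays was 0.72 for Ckm, 0.69 for Mylpf and 0.56 for Eno3, wider than 99.6%, 99.5% and 98.6% of 7544 features, while the median feature had 0.20. It was narrower for the other member features with all 9 values, 0.44 and 0.42 for Tpm2, 0.36, 0.33 and 0.22 for Acta1 and 0.33 for Des, of which the third Acta1 feature was wider than 56.0% of features.

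Among 3877 features with values on all 9 arrays and an SD of at least 0.2, the named features most like the mean of the 8 members came from Neb, Ndrg2, Kif1b, Aldoa, Fhl1, Tardbp and Gimap3. Neb, the giant ruler protein of the thin filament, led with r = 0.94 over 9 arrays, 0.97 over the 6 unswapped arrays and 0.67 without old 1 and young bone 1. It had 1.53, 0.39 and 0.60 on the old arrays, -0.72, 0.34 and -0.11 on the young bone arrays, and 0.04, -0.01 and 0.12 on the young marrow arrays. The 3 features of Ndrg2 had r = 0.93, 0.92 and 0.87, and 2 features of Aldoa, a glycolytic enzyme abundant in muscle, had 0.88 and 0.87. Fhl1, a LIM protein of muscle, had r = 0.86, and Gimap3 had 0.84 over 9 arrays but 0.30 without the 2 outer arrays.

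Beyond the 8 members, 6 lists of skeletal muscle genes held 122 genes, of which 37 were on the array with 46 features. Only 25 of these 46 features could be tested, mainly because young marrow values were missing. In these 25 the medians were near 0, -0.02 in the old group, 0.00 in young bone and -0.06 in young marrow. For old minus young bone the median was -0.03, as over all features, with 10 features above 0 and 15 below. Of the 46, 38 could be tested on the old and young bone arrays alone, a fit added after the data were seen. There the medians were 0.14 in the old group, -0.08 in young bone and 0.21 for the difference, each with the sign of the members. Many features went the other way: 15 of 38 lay below 0 in the old group, 12 above 0 in young bone and 15 below 0 for the difference. The list medians for the difference ran from -0.07 for the myogenic regulators to 1.08 for the myosin, actin, troponin and tropomyosin list. In the limma fit of the 9 arrays 0 of 25 passed in the old group, 0 of 25 in young bone and 1 of 25 in young marrow, against 0.732%, 0.259% and 0.844% of all features. At an unadjusted p under 0.05 there were 5, 7 and 7 of 25, against 18.2%, 8.78% and 10.5%, so the old share was near that of all features. The feature that passed was Myl4, the light chain of atrial and embryonic muscle, which rose in young marrow by 0.72 ± 0.12 (SE, limma adjusted p = 0.024). Its ratios were 0.19, 0.15 and 0.55 on the old arrays, 0.69, 0.54 and 0.86 on the young bone arrays, and 0.54, 0.62 and 1.01 on the young marrow arrays, so it did not follow the members in young bone, where it had 0.69 ± 0.12 (SE, limma adjusted p = 0.052), the smallest p of the list features there. Under the Cy5-over-Cy3 reading Myl4 was at 0.12 in young marrow. Of the others named for a small p in young bone, the 2 features of Aldoa had -0.51 ± 0.10 and -0.39 ± 0.11 there (SE, limma adjusted p = 0.060 and 0.24), and Pfkm, the phosphofructokinase of muscle, had -0.42 ± 0.12 (0.26). Neb had 0.80 ± 0.21 in the old group and -0.20 ± 0.21 in young bone (SE, limma adjusted p = 0.15 and 0.95). Actc1, Tpm1, Csrp3, Xirp1, Atp2a2, Chrna1, Dysf, Dmd, Mef2c and Mef2a had values between -0.29 and 0.37 in young bone and did not pass.

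Missing values set the wider muscle lists apart between the groups. A value was given for 89.1%, 80.4% and 78.3% of the 46 wider features on the old arrays, for 93.5%, 100% and 100% on the young bone arrays and for 52.2%, 58.7% and 45.7% on the young marrow arrays. Over all 11552 features the young marrow shares were 76.6%, 84.2% and 71.8%, so the shortfall of the muscle lists was in young marrow. The 12 member features had a value on every old and young bone array, and on 100%, 91.7% and 75.0% for young marrow. What leads to a missing value was not stated in the sources used here, and a low signal was not tested as its cause.

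**Figure D3:**
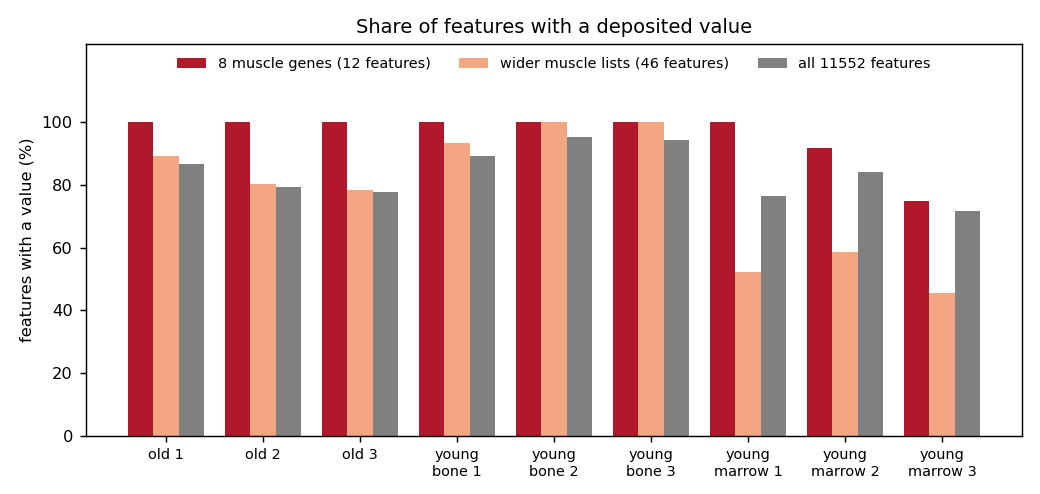
Percentage of features with a deposited value (vertical axis, from 0) on each old, young bone and young marrow array, for the 12 member features, the 46 features of the wider muscle lists and all 11552 features. The wider muscle lists lay between 45.7% and 58.7% on the young marrow arrays, against 78.3% or more on the others.

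Of the 8470 features with values on all 6 old and young bone arrays, 50 (0.59%) had no young marrow value at all, and 11 of the 46 muscle features with those 6 values, members included, were among them. The 11 were Tnnc1, Tnnc2, Tnni1, Tnni2, Tnnt3, Myh3, Ldb3, Hrc, Ryr1, Stac3 and Pygm, which code for troponins, an embryonic myosin, a Z-disc protein, calcium release proteins and muscle glycogen phosphorylase, and none is a member. Their median was 1.27, 0.37 and 0.41 on the old arrays, where all 11 lay above 0 on each array. It was -0.72, -0.03 and -0.38 on the young bone arrays, with all 11 below 0 on young bone 1 and young bone 3 and 6 of 11 on young bone 2. In a limma fit of the 6 old and young bone arrays alone, added after the data were seen, old minus young bone was above 0 for 11 of 11, from 0.53 to 1.65 with a median of 1.12. None passed, with an adjusted p of 0.90, against 0.0% of 9345 features, while 10 of 11 had an unadjusted p under 0.05, against 3.96% of all features. Their median had the sign of the member median on all 6 arrays. These values are castrated over sham. With the swapped arrays turned, all 11 would lie below 0 on old 2 and above 0 on young bone 3. The mean old minus young bone differences were then smaller but still above 0, from 0.20 for Ryr1 to 1.05 for Tnnt3. Whether muscle attached to the bones contributed to the ratios was not tested.

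The troponins allowed fast and slow fibres to be set side by side, a split made after the values were seen. The fast forms Tnnt3, Tnnc2 and Tnni2 had 1.02 to 1.51, 0.36 to 0.51 and 0.45 to 0.54 on the old arrays 1, 2 and 3, and -1.56 to -1.25, -0.59 to -0.03 and -1.25 to -0.39 on the young bone arrays 1, 2 and 3. On each array these lay on the same side of 0 as the member median. The slow forms Tnnc1 and Tnni1, the second averaged over 2 features, had 2.64 to 2.70, 0.27 to 0.37 and 0.88 to 1.01 on the old arrays, and -0.27 to -0.08, 0.85 to 1.11 and -0.38 to -0.08 on the young bone arrays. On young bone 2 the slow forms were thus above 0 while the fast forms and the member median were below 0, and on young bone 1 the slow forms were much nearer 0 than the fast ones. The distance between slow and fast forms was thus not the same on each array. These values are castrated over sham, and those of old 2 and young bone 3 change sign under the Cy5-over-Cy3 reading. Tnnc1 is also the troponin C of heart muscle. The cardiac markers Tnni3 and Tnnt2 had no value on any old or young marrow array, and the other 6 of the 8 cardiac markers had no feature named for them. On young bone 1 only 1 of these 2 genes had a value, -0.29. The 2 genes had 0.22 and 0.34 on young bone 2, and -0.12 and 0.54 on young bone 3.

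**Figure D4:**
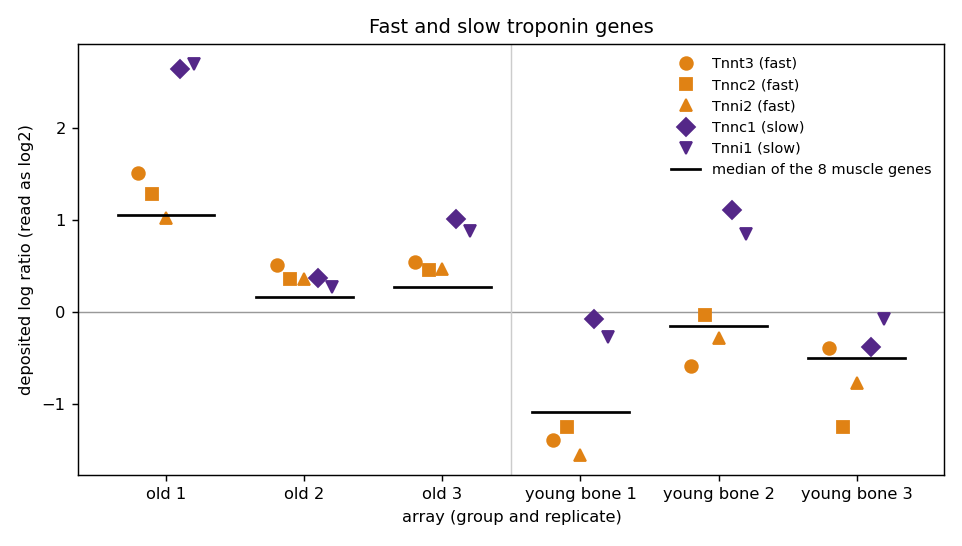
Deposited log ratios (vertical axis, read as log2) of 3 fast (orange) and 2 slow (purple) troponin genes on the old and young bone arrays; the black line is the median of the 8 muscle genes. The slow genes lay above the fast genes on every array but old 2, and on young bone 2 they lay on the other side of 0, at 0.85 and 1.11. Values are castrated over sham, and the points of old 2 and young bone 3 change sign under the Cy5-over-Cy3 reading.

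Of the non-muscle relatives of the members, 9 genes were on the array with 18 features, among them Actb and Actg1 (cytoskeletal actins), Myl6, Myl9, Myl12a and Myl12b (non-muscle and smooth muscle light chains) and Tpm4. Tpm1 was counted both here and in the wider muscle lists. Their median over genes was -0.04, -0.20 and 0.04 on the old arrays, 0.11, -0.04 and 0.13 on the young bone arrays, and -0.13, -0.10 and 0.02 on the young marrow arrays. In the limma fit 0 of 18 passed in each group against 0.732%, 0.259% and 0.844% of all features, with medians of -0.07, 0.09 and -0.15 in the old, young bone and young marrow groups. At an unadjusted p under 0.05 there were 1, 4 and 3 of 18, against 18.2%, 8.78% and 10.5%. Smooth muscle markers had medians of -0.09, -0.14 and -0.00 on the old arrays, -0.04, 0.26 and 0.12 on the young bone arrays, and 0.02, -0.09 and 0.03 on the young marrow arrays.

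Markers of other cell types in these specimens were followed on the same arrays. Osteoblast and bone matrix markers had medians of -0.38, 0.09 and 0.22 on the old arrays, 0.13, 1.28 and 0.26 on the young bone arrays, and 0.45, 0.27 and 0.79 on the young marrow arrays. Young bone 2, where the bone list was highest, was the young bone array on which the muscle members were nearest 0. Adipocyte markers had medians of 1.05, 1.0 and 1.69 on the old arrays, 0.53, 0.68 and 0.62 on the young bone arrays, and 0.55, 0.32 and 0.30 on the young marrow arrays. These medians were above 0 throughout and highest on old 3 and not old 1. The medians of the B lymphocyte markers lay between 0.49 and 1.06 and those of the granulocyte markers between -0.64 and -0.25 on all 9 arrays. These medians had no turn of sign between old and young bone. Single genes ranged wider, from -0.27 to 1.43 for B lymphocyte markers and from -1.14 to 0.12 for granulocyte markers. The medians of the erythroid markers lay between -0.50 and 0.48. Tendon and cartilage markers, with 2 to 4 genes, had medians of -0.26, 0.11 and 0.27 on the old arrays and 0.33, 0.42 and 0.16 on young bone. These young bone medians lay on the other side of 0 from the muscle members. Endothelial markers had medians between -0.21 and 0.24 on the 9 arrays, and peripheral nerve markers, with at most 2 genes, between -0.44 and 0.29. The part of these cell types in the muscle values was not tested.

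**Figure D5:**
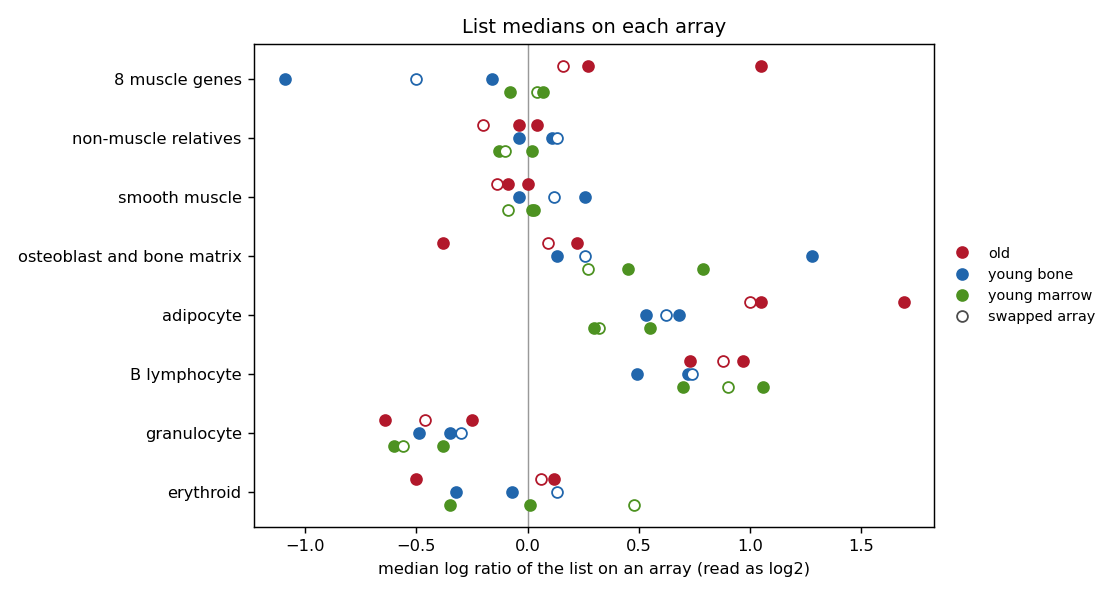
Median deposited log ratio (horizontal axis, read as log2) of the 8 muscle genes and of marker lists on each old, young bone and young marrow array; open points are swapped arrays. The muscle genes lay at 0.16 to 1.05 on the old arrays and -1.09 to -0.16 on the young bone arrays, while the lists of blood cells kept 1 sign or scattered about 0.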

How the data were processed

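RNA of each specimen was turned into aminoallyl cDNA and coupled to Cy3 or Cy5, per the labels' protocols. The authors deposited 1 value per feature and array, a log ratio read here as log2. Its base, direction, background treatment and normalisation are not given in the sources used here. No scaling was added. Groups came from the sample titles. Of 11552 features, 8050 had 1 gene symbol, 672 several and 2830 none, and 7880 symbols were updated by gene ID. Features were tested with at least 2 values per group and at least 1 value on a swapped array, which left 8885. A limma fit (limma 3.58.1, R 4.3.3) held group coefficients and a dye term; each contrast had a design of its own, so that its SE was exact with missing values. Benjamini-Hochberg adjustment ran over the whole table of each comparison, with a threshold of 0.05. The fit was tested on simulated data. The members and gene lists were chosen with earlier results of these data known. Named were all members, list genes that passed, up to 3 per list with the smallest p in young bone, and the 10 features most like the members. The genes without young marrow values and the split of the troponins were chosen after values were seen. Alternatives were the reading of the ratio, the arrays and dye term used, centring, scaling, missing values, a replicate block, features of a gene averaged, and each array left out. Design text gives each replicate as a mouse pair. The main fit is unpaired, as same-numbered arrays did not deviate together in every pair (r from -0.37 to 0.60). That check cannot separate pairing from dye. Dye was not removed from it, and young bone is swapped on array 3 but old and young marrow on array 2. Between old and young marrow, which came from different mice, all 3 same-numbered arrays deviated together (r = 0.60, 0.27 and 0.30). A fit with those numbers as a block was added after the data were seen. Promoter windows came from RefSeq, and figures were drawn with matplotlib 3.10.9.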

Additional observations from a re-analysis of the deposited data

Results flagged for a closer look

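The sign of the castration ratio differed between the old group and young bone on every array for 4 members: all 3 old arrays lay above 0 and all 3 young bone arrays below 0. The fitted difference, old minus young bone, was 1.35 for Mylpf, 1.35 for Ckm, 1.66 for Mb and 1.51 for Myl1 on the log2 scale. The difference itself was tested with limma and did not pass, with adjusted p between 0.52 and 0.69. Without old 1 these differences were 1.10 for Mylpf, 0.99 for Ckm, 1.19 for Mb and 1.29 for Myl1. Under the Cy5-over-Cy3 reading they were 0.75 for Mylpf, 0.72 for Ckm, 1.0 for Mb and 0.43 for Myl1, and no member then had all old arrays above 0 with all young bone arrays below 0.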

How the results depend on the processing

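Each comparison was refitted under up to 19 alternatives, 9 of which left out 1 array. No median of the member features turned sign in the old group, in young bone or in the differences between groups. With 1 array left out, the medians ranged from 0.22 to 0.56 in the old group, from -0.68 to -0.14 in young bone, from -0.21 to 0.13 in young marrow, from 0.46 to 0.96 for old minus young bone, from 0.15 to 0.38 for old minus young marrow and from -0.64 to -0.30 for young bone minus young marrow. The young marrow median was 0.01 with features that had all 9 values. The number of member features that passed in limma depended on single arrays: without old 3 it was 4 in the old group (Mylpf, both Tpm2 features and Ckm, adjusted p from 0.0094 to 0.039), where 15.0% of all features then passed, 1 in young bone (Myl1, adjusted p = 0.033), 1 for old minus young bone (Ckm, 1.54, adjusted p = 0.043) and 1 for old minus young marrow (Ckm, adjusted p = 0.019). Without young bone 2 it was 1 in young bone (Myl1, adjusted p = 0.038), and with features of a gene averaged it was also 1 (Myl1, adjusted p = 0.041). Under the other settings 0 member features passed. The reading of the ratio turned the sign of some single features: under Cy5 over Cy3, young bone minus young marrow was at 0.19 for Myl1, against -0.94 as castrated over sham, and at 0.11 and 0.07 for 2 Acta1 features, against -0.33 and -0.29. In young bone the same 2 Acta1 features were then at 0.02 and 0.01, and with young bone and old arrays alone they were at 0.04 and 0.03 and Myl1 at 0.02. Eno3 for old minus young marrow was at 0.12 under Cy5 over Cy3 and 0.05 on unswapped arrays, and an Acta1 feature in the old group at -0.03 with the replicate block. With 1 array left out, signs also turned in young bone for Tpm2 (from -0.30 to 0.02 and from -0.41 to 0.06), in the old group for 2 Acta1 features (from -0.02 to 0.07 and from -0.04 to 0.19) and Eno3 (from -0.08 to 0.21), for old minus young marrow in Tpm2 (from -0.01 to 0.52 and from -0.07 to 0.35), an Acta1 feature (from -0.05 to 0.21), Eno3 (from -0.25 to 0.06) and Des (from -0.03 to 0.38), and for young bone minus young marrow in an Acta1 feature (from -0.17 to 0.08) and Des (from -0.32 to 0.01). The cause was not tested. With the replicate number as a block, 0 member features passed in limma in each comparison and the medians were 0.22 in the old group, -0.41 in young bone and 0.68 for old minus young bone; the block gave 70, 45 and 0 features passing over all genes in these, on features with all 9 values. Signal over background is unknown, and 3 arrays per group limit what could pass.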
